A study of Mus musculus with 27 samples.

Results

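Kcnma1, Anpep, Apol7c and Atp6v0d2 label 4 of the probe sets whose signal rose most when mouse bone marrow was cultured with Flt3 ligand (Flt3-L). In all, 19935 genes were measured. The label Kcnma1 is in doubt, as described below. These 4 genes were chosen on that rise. Their signals against unstimulated marrow, and from time to time in Flt3-L alone, are therefore given as description with no test. Each gene was read from the probe set that the platform annotation gives to that gene alone, and where a gene had more than 1 such probe set, from the one with the highest mean log2 signal over the 27 arrays. The effect of cyclosporin A (CsA) and the change with time inside the CsA cultures were tested.

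Marrow came from the femurs and tibiae of C57BL/6 mice aged 8 to 12 weeks. It was cultured with Flt3-L at about 200 ng/ml, a preparation made by transfected B16 tumor cells, either without CsA or with CsA at 2 µg/ml, added 30 min ahead and present from then on. Total RNA was prepared after 12 h, 24 h, 48 h and 11 days, which with an unstimulated group gives 9 groups of 3 arrays. The labels call the 3 arrays biological replicates without naming a mouse or pool behind each, and do not say whether the unstimulated marrow was fresh or cultured without Flt3-L. No CsA group without Flt3-L was used here, so CsA effects are those seen on top of Flt3-L.

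Flt3-L binds the receptor tyrosine kinase Flt3 on blood progenitors and drives the growth of dendritic cells from marrow. CsA binds cyclophilin and blocks calcineurin, the calcium-activated phosphatase whose action sends NFAT transcription factors into the nucleus. Kcnma1 encodes the pore-forming subunit of the large-conductance calcium-activated potassium (BK) channel. Anpep encodes aminopeptidase N, or CD13, a zinc enzyme on the surface of myeloid cells that trims amino acids from the ends of peptides. Atp6v0d2 encodes an isoform of the d subunit of the V-ATPase, the proton pump that acidifies lysosomes, and is known from osteoclasts and macrophages, where NFATc1 and MITF drive it in osteoclasts. Apol7c belongs to the apolipoprotein L family of membrane-active proteins and has been studied in conventional dendritic cells.

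The array's own listing puts the label Kcnma1 in doubt, and that bears on every value under this name. The probe set that the rule picked lists 4 sequence accessions, of which 0 are RefSeq accessions and 0 are among the 55 RefSeq transcripts of Kcnma1. The gene's other probe set lists 20 accessions, of which 17 are RefSeq transcripts of the gene, and its signal lay between 23.2 and 33.9 on all 27 arrays. Among 21715 single-gene probe sets of genes with RefSeq transcripts, 724 (3.33%) likewise list no RefSeq accession. Whether the bright probe set hybridises with Kcnma1 transcripts was not tested, so it is called the probe set labelled Kcnma1 here, and its values are not given as expression of the BK channel.

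Promoter sequences are shown for Anpep and Apol7c because these members differed most in how their signal behaved under CsA at 11 days. Anpep stood out by little, at 0.1218 log2 units against 0.1206 for the probe set labelled Kcnma1. RefSeq promoters matched 3 of the 4 members (Kcnma1, Anpep and Apol7c). Both sequences are the 250 bases before the start that the promoter table gives, on the minus strand of GRCm38.p6, at chr7:79848211-79848460 for Anpep and chr15:77533316-77533565 for Apol7c. The Anpep sequence ends where the listed gene begins, while the last 20 bases of the Apol7c sequence, with the last of its matches, lie inside the gene's listed span. They are written 5′ to 3′ along the gene, with matches on either strand to GGAAA (the core bound by NFAT), TGANTCA (AP-1), CACGTG (E-box), GGAAGT (ETS), GGGCGG (GC box) and TATAAA in capitals. The NFAT and ETS motifs share their opening letters but cannot both match at one place.
Anpep: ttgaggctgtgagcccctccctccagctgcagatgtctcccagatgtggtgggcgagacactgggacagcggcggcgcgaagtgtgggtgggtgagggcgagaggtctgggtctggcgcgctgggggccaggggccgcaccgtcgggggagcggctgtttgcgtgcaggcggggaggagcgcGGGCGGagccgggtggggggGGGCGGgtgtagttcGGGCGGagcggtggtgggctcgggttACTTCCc
Apol7c: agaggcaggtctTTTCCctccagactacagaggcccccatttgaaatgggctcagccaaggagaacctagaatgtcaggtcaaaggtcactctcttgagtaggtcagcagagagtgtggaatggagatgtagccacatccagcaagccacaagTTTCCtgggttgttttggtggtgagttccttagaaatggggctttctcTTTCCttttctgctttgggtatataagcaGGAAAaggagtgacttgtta

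The Anpep promoter held 3 GC box matches, 1 ETS match and no match to the other motifs. Its GC content was 72.8%, at percentile 94 of 32851 promoters of the same length, and it held 23 CpG dinucleotides. The Apol7c promoter held 4 NFAT core matches, no match to any other motif and 0 CpG, with a GC content of 47.6% against a median of 52.4%. Motifs were matched letter for letter. Near forms, such as the run tatataag near the end of the Apol7c sequence, were therefore not counted. The Kcnma1 promoter, not printed, held 3 GC box matches and no match to the other motifs. The NFAT core is a common run of letters: 55.6% of promoters held at least 1 match, against 32.7% for the GC box and 19.7% for the ETS motif. The share of promoters with 4 or more NFAT core matches was not counted. TATAAA matched in 12.4%, the AP-1 motif in 6.75% and the E-box in 6.02% of promoters. These matches describe letters only, and binding of any factor was not measured.

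**Figure D1:**
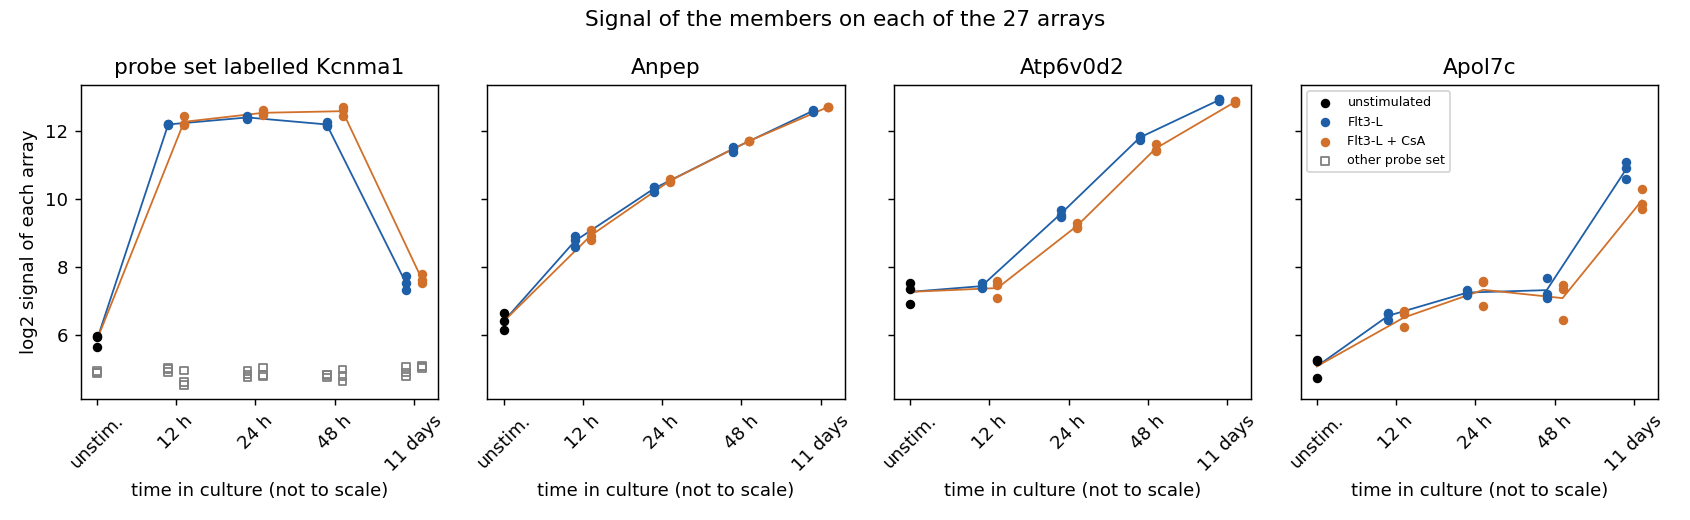
Log2 signal of the probe set labelled Kcnma1, Anpep, Atp6v0d2 and Apol7c on each of the 27 arrays (y axis) by group (x axis, not to scale). Points are arrays, lines join the group means from the unstimulated group onward, and open squares are the other Kcnma1 probe set, which stayed between 23.2 and 33.9 on the linear scale.

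The probe set labelled Kcnma1 was already near its highest signal at 12 h and was low again at 11 days. Its signal was 62.3, 50.5 and 61.2 on the unstimulated arrays and 4680.9, 4710.6 and 4663.6 after 12 h of Flt3-L. At 24 h it was 5538.5, 5268.2 and 5402.2, and at 48 h it was 4659.6, 4902.4 and 4494. At 11 days it was 159.6, 184.5 and 213.4, below every earlier Flt3-L array and above every unstimulated one. The rise over unstimulated marrow was 6.34 log2 units (81.1-fold) at 12 h, 6.55 (93.5-fold) at 24 h, 6.34 at 48 h and 1.68 (3.20-fold) at 11 days. These rises ranked 1 of 19935 genes at each of the 3 early times and 588 at 11 days. Between 48 h and 11 days the signal fell by 4.67 log2 units, or 25.4-fold.

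Anpep climbed at every interval. The aminopeptidase N signal was 70.3, 99.7 and 85.5 in unstimulated marrow and 483, 382.2 and 444.6 at 12 h. It was 1179.1, 1315.2 and 1315.7 at 24 h, and 2674.4, 2922.3 and 2986.4 at 48 h. At 11 days it was 6108, 6053.9 and 6323.2, and no group along the Flt3-L series overlapped the one before it. The rises over unstimulated marrow were 2.37, 3.91, 5.08 and 6.19 log2 units at the successive times (5.15-, 15.04-, 33.9- and 73.1-fold, SE 0.09 log2 units), ranking 14, 5, 4 and 2 of all genes. The 12 h mean was 7.09% of the 11-day mean, the 24 h mean 20.6% and the 48 h mean 46.4%.

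Atp6v0d2, the V-ATPase d2 subunit gene, started later. Its signal was 119.7, 185.5 and 164.9 in unstimulated marrow and 166.5, 184.8 and 169.1 at 12 h, groups that overlapped. It was 716.5, 741.1 and 819.5 at 24 h and 3637, 3729.1 and 3430.5 at 48 h. At 11 days it was 7524.5, 7835.5 and 7826.5, and from 24 h on each group lay above the one before. The rises were 0.17, 2.30, 4.54 and 5.65 log2 units at the successive times (1.12-, 4.92-, 23.3- and 50.1-fold, SE 0.11), ranking 4498, 29, 5 and 7. Anpep and Atp6v0d2 thus stood at similar shares of their 11-day signal at 48 h, 46.4% and 46.6%, from different shares at 12 h, 7.09% and 2.24%.

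Apol7c rose a little at first and then steeply between 48 h and 11 days. The apolipoprotein L signal was 26.6, 38.5 and 37.6 in unstimulated marrow and 100.4, 98.1 and 86.1 at 12 h. It was 145.2, 159.9 and 151.5 at 24 h and 135.3, 202.5 and 148.7 at 48 h, groups that overlapped. At 11 days it was 1548.2, 1918.2 and 2191.1, above every other array of this probe set. The rises were 1.49, 2.17, 2.24 and 5.79 log2 units at the successive times (2.80-, 4.50-, 4.73- and 55.3-fold, SE 0.23), ranking 45, 34, 67 and 5. The step from 48 h to 11 days alone was 3.55 log2 units (11.7-fold), and the 48 h mean was 8.60% of the 11-day mean.

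Other genes rose as far, so the name given to the 4 genes does not set them apart. Gpnmb, a glycoprotein of macrophages and osteoclasts, ranked below only the probe set labelled Kcnma1 at 12 h (4.91 log2 units, 30.1-fold), 24 h and 48 h. Mmp12, macrophage elastase, had the largest 11-day rise, 7.04 log2 units or 131-fold. Mamdc2 rose by 5.86 log2 units at 11 days, between Anpep and Apol7c. The remaining genes among the 5 largest rises were Clec4n, a C-type lectin, Dpep2, a surface dipeptidase, and Klk1b11 at 12 h, and Klk1b11 and C3ar1, the receptor for complement C3a, at 24 h.

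**Figure D2:**
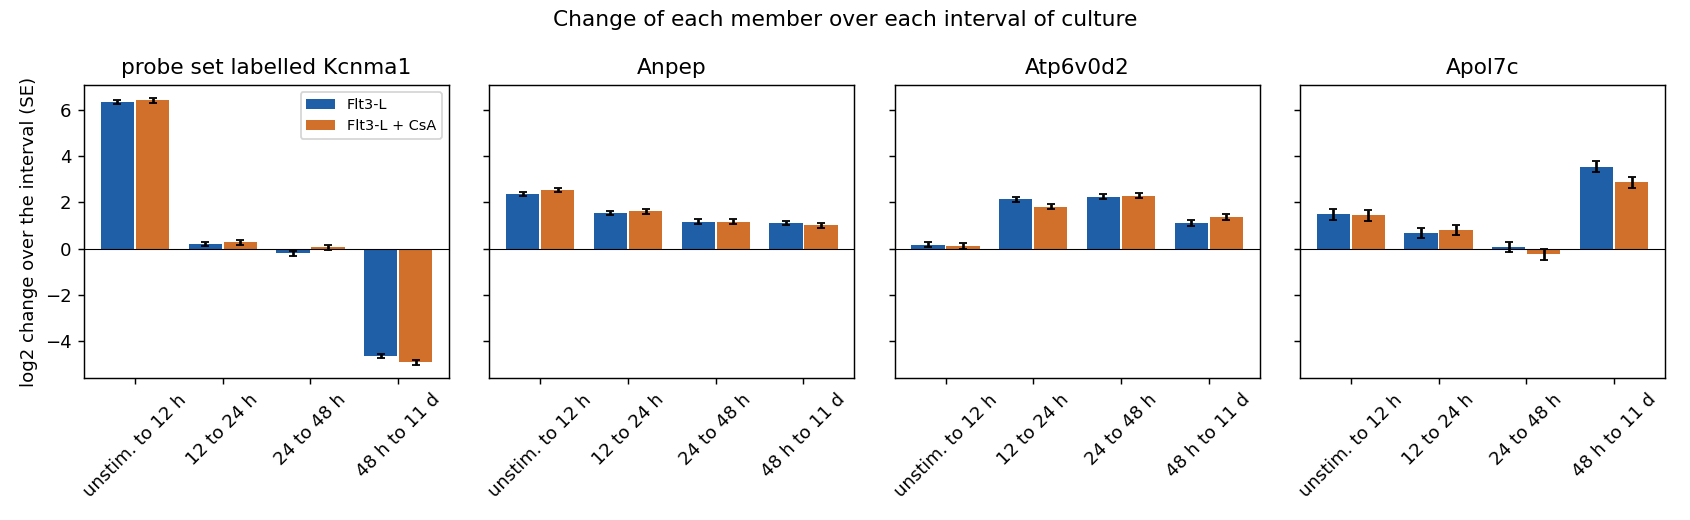
Bars give the log2 difference of each member's signal (y axis) over each interval of culture (x axis), in Flt3-L alone and with CsA, with SEs from the limma fit; the bars for the opening interval share the unstimulated arrays. Anpep gained at every interval, Atp6v0d2 from 12 h on and Apol7c mostly after 48 h, while the probe set labelled Kcnma1 gained its signal by 12 h and lost it after 48 h.

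The CsA cultures gave a view of the timing on arrays other than those of the rise on which the members were chosen. This view is not independent of that choice, since these cultures also held Flt3-L and earlier results of these data were known. For a gene with several probe sets, the pick by mean signal also used the CsA arrays. Each step between successive times was tested with limma over all 19935 genes, with the Benjamini-Hochberg adjustment and a threshold of 0.05. Anpep rose by 1.61 log2 units from 12 h to 24 h (3.06-fold, adjusted p = 5.08e-12), by 1.17 to 48 h (2.25-fold, adjusted p = 8.56e-10) and 2.00-fold to 11 days (adjusted p = 1.58e-09). Its signals with CsA were 539.2, 477.5 and 444.7 at 12 h, 1442.9, 1548.5 and 1466.5 at 24 h, 3318.8, 3371.4 and 3349.5 at 48 h, and 6749.9, 6692.9 and 6667.3 at 11 days. Each of these groups lay wholly above the one before. The opening step was the largest, with a 95% interval of 1.42 to 1.81 log2 units against 0.98 to 1.36 and 0.81 to 1.19 for the later ones; the differences between steps were not tested.

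Atp6v0d2 rose in the CsA cultures by 1.82 log2 units to 24 h (3.53-fold, adjusted p = 1.88e-11), 2.29 to 48 h (4.89-fold, adjusted p = 8.34e-13) and 1.37 to 11 days (2.58-fold, adjusted p = 2.34e-10). Its signals with CsA were 175.8, 192 and 137.1 at 12 h, overlapping the unstimulated and the Flt3-L arrays. They were 625.6, 577.5 and 562.8 at 24 h, 3135.8, 2766.1 and 2746.6 at 48 h, and 7510.7, 7233.6 and 7521.2 at 11 days. The largest step of this proton pump gene with CsA was the one from 24 h to 48 h. Without CsA the steps to 24 h and to 48 h were close, 2.13 and 2.25 log2 units (SE 0.11 each). The intervals differ in length, and the differences between steps were not tested.

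Apol7c was called higher at 24 h than at 12 h with CsA, by 0.81 log2 units (1.76-fold, adjusted p = 0.0146), and at 11 days than at 48 h, by 2.87 (7.31-fold, adjusted p = 9.96e-11). The step from 24 h to 48 h, -0.24, was not called (adjusted p = 0.566). Its signals with CsA were 75.5, 103.4 and 98 at 12 h, 115.9, 186.6 and 192.1 at 24 h, 86.1, 163.2 and 177.7 at 48 h, and 1264.8, 918.8 and 840.7 at 11 days. The array with the lowest signal at each of the first 3 times was replicate 1, while at 11 days replicate 1 was the highest. Leaving out the 12 h replicate 1, or the 24 h replicate 2 or 3, ended the call of the first step (0.68, 0.71 and 0.69, adjusted p = 0.0895, 0.0714 and 0.0788).

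The probe set labelled Kcnma1 fell by 4.94 log2 units between 48 h and 11 days with CsA (30.6-fold lower, adjusted p = 4.74e-23). Its earlier steps, 0.27 to 24 h (adjusted p = 0.0593) and 0.05 to 48 h (adjusted p = 0.828), were not called, and the 24 h step was called without the CsA 12 h replicate 1 (0.35, adjusted p = 0.0190). Its signals with CsA were 5591.1, 4596.9 and 4696.9 at 12 h, 5683.8, 6235.5 and 5910.6 at 24 h, 6279.2, 5554.8 and 6632 at 48 h, and 185.8, 220.7 and 196.9 at 11 days. The other Kcnma1 probe set did not share the fall: its 48 h to 11 days difference was 0.26 log2 units (adjusted p = 0.0258).

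In all, 9 of the 12 member steps were called in the CsA cultures, a count that is not independent of how the members were chosen. Over all genes, 16.4% were called from 12 h to 24 h, 22.2% from 24 h to 48 h and 43.1% from 48 h to 11 days. Calls at the last step were therefore common among all genes.

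The order of the 9 group means followed from these courses. For Anpep, the neighbouring groups that overlapped were Flt3-L and CsA at 12 h. For Atp6v0d2, the unstimulated group and both 12 h groups overlapped, and every later group stood apart from its neighbours. For Apol7c, the 6 groups from 12 h to 48 h each overlapped the next in order, below the 11-day CsA group and then the 11-day Flt3-L group. For the probe set labelled Kcnma1, both 11-day groups overlapped, as did Flt3-L at 48 h with both 12 h groups and Flt3-L at 24 h in a chain, and CsA at 24 h with CsA at 48 h.

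**Figure D3:**
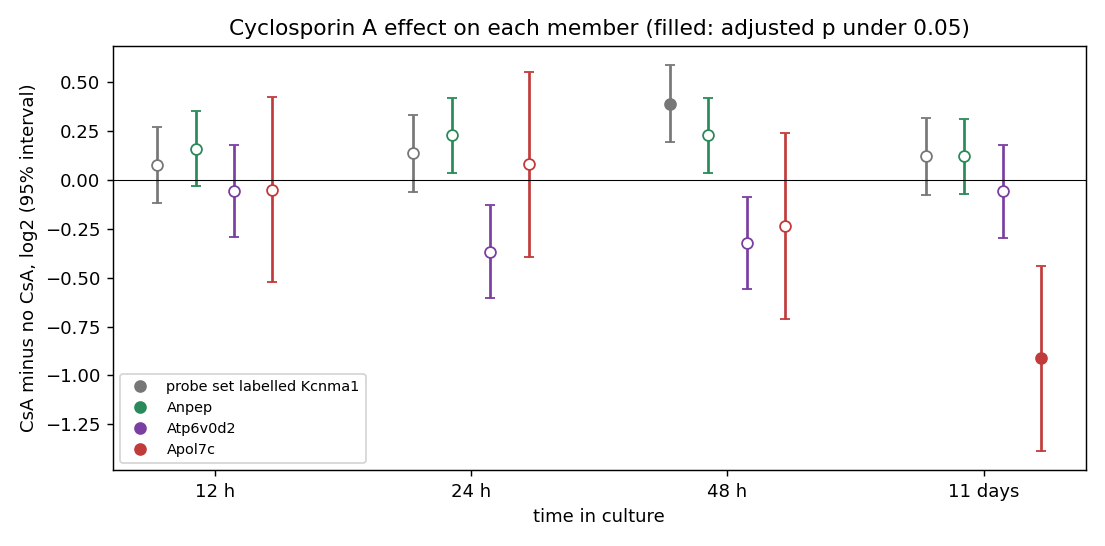
Log2 difference between Flt3-L with CsA and Flt3-L alone (y axis) at each time (x axis) for the 4 members, with 95% intervals from the limma fit and filled points for called differences. The called differences are Apol7c at 11 days, -0.91, and the probe set labelled Kcnma1 at 48 h, 0.39.

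CsA was followed by small differences in 3 of the members and by a lower Apol7c signal at 11 days. Of 16 tests (4 members at 4 times), 2 were called by limma, and 6 had an unadjusted p under 0.05. The share of all genes with an unadjusted p under 0.05 was not worked out, so the 6 cannot be set against it. Over all genes, 6.73% were called at 12 h, 3.78% at 24 h, 4.51% at 48 h and 12% at 11 days, so a count of 2 in 16 is near the background. Those called higher with CsA were 2.82%, 1.6%, 2.17% and 4.92% of genes at the successive times, and those called lower 3.91%, 2.19%, 2.34% and 7.08%. These tests share the Flt3-L arrays with the rises on which the members were chosen, so a lower signal with CsA is not independent of that choice.

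Apol7c at 11 days was 1548.2, 1918.2 and 2191.1 without CsA (1886 ± 323, SD, n = 3) and 1264.8, 918.8 and 840.7 with it (1008 ± 226, SD, n = 3), and the groups did not overlap. The difference was -0.91 log2 units, or 1.88-fold lower with CsA (95% interval -1.39 to -0.44, limma adjusted p = 0.00761). Leaving out the Flt3-L replicate 3 or the CsA replicate 3 at 11 days ended the call (-0.80 and -0.79, adjusted p = 0.0512 and 0.0544). At 12 h, 24 h and 48 h the Apol7c differences were -0.05, 0.08 and -0.24 (adjusted p from 0.759 to 0.957), with overlapping arrays. The interval at 48 h, -0.71 to 0.24, covers a sizeable drop as well as none. The change in the CsA effect from 48 h to 11 days was -0.68 ± 0.32 (SE; 95% interval -1.35 to -0.0057) and was not called (adjusted p = 0.278), though it was without the CsA 48 h replicate 1 (-1.004, adjusted p = 0.0331). Even with CsA, Apol7c at 11 days stood 4.88 log2 units above unstimulated marrow.

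Markers of dendritic cells, and of several other cell types, also moved with CsA at 11 days. Of 10 markers of cross-presenting dendritic cells (cDC1), 8 were called lower (7 under either other scaling of the arrays) and 0 higher, and their summed signal was 11317 to 12433 without CsA and 8656.5 to 10347 with it. Of 9 markers of mature dendritic cells, 6 were lower, with sums of 5554 to 7931 and 3862 to 4831. All 8 markers shared by conventional dendritic cells were lower, with sums of 22391 to 23619 and 15032 to 17789. Of 8 cDC2 markers 4 were lower and 0 higher, with sums of 10590 to 10958 and 9072 to 9832. Of 8 markers of plasmacytoid dendritic cells 3 were higher (2 with array medians subtracted) and 4 lower, with overlapping sums of 3264 to 3521 and 3253 to 3583. Examples among the first 3 lists are the chemokine receptor gene Xcr1 (2.81-fold lower), the dead-cell receptor gene Clec9a (3.09-fold), the integrin gene Itgax (2.30-fold), the migration receptor gene Ccr7 (2.06-fold) and Fscn1, which encodes the actin bundler fascin (2.04-fold). Sums outside dendritic cells moved too. Without and with CsA they were 2664 to 3138 and 1128 to 1418 for neutrophils. For osteoclasts they were 5100.5 to 5349 and 3252 to 3278, and for B cells 3468 to 4034 and 2370 to 2433. Sums of progenitors and of eosinophils, basophils and mast cells were lower with CsA too. The macrophage sum was higher with CsA, 63394 to 64150 against 59355 to 61063. Erythroid, stromal and T and NK cell sums overlapped. The arrays read whole cultures, so fewer cells of a type and less RNA per cell cannot be told apart. The part of these markers in the Apol7c difference was not tested.

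The probe set labelled Kcnma1 was higher with CsA at 48 h, by 0.39 log2 units (1.31-fold, 95% interval 0.19 to 0.59, limma adjusted p = 0.0150). Its signals were 6279.2, 5554.8 and 6632 with CsA against 4659.6, 4902.4 and 4494 without, with no overlap. Leaving out the Flt3-L replicate 3, the CsA replicate 1 or the CsA replicate 3 at 48 h ended the call (0.36, 0.37 and 0.33, adjusted p = 0.0721, 0.0650 and 0.0951), as did averaging both Kcnma1 probe sets (0.20, adjusted p = 0.0912). The other probe set differed by 0.00037 log2 units. At 12 h, 24 h and 11 days the differences were 0.08, 0.14 and 0.12 (adjusted p = 0.616, 0.644 and 0.473). At 48 h the summed macrophage markers were 37947 to 39236 without CsA and 38608 to 40365 with it, and the 8 cDC2 markers 11046 to 11729 and 9189 to 9475 (5 called lower). Markers of eosinophils, basophils and mast cells (8 of 9 lower) summed to 4766 to 5186 without CsA and 3188 to 3567 with it, and those of B cells (6 of 9 lower) to 10795 to 11921 and 7558 to 9095. The part of these markers in the difference was not tested.

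Anpep was a little higher with CsA at every time, and no difference was called. The differences were 0.16, 0.23, 0.23 and 0.12 log2 units at the successive times (adjusted p = 0.270, 0.240, 0.215 and 0.456). The arrays with and without CsA overlapped at 12 h and were apart at 24 h, 48 h and 11 days. Over all genes the groups did not overlap for 28.3%, 16.6%, 19.1% and 29.8% at the successive times. At 11 days the Anpep interval, -0.07 to 0.31, leaves room for a rise but for hardly any fall.

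Atp6v0d2 was a little lower with CsA in the middle of the course. At 24 h its signals were 716.5, 741.1 and 819.5 without CsA and 625.6, 577.5 and 562.8 with it, a difference of -0.37 log2 units (95% interval -0.60 to -0.13, adjusted p = 0.0807). At 48 h the difference was -0.32 (interval -0.56 to -0.09, adjusted p = 0.128), also with no overlap. Neither was called here, although both were called with array weights (-0.40 and -0.35) or with 50 added to each signal (-0.34 and -0.32), and the 24 h difference was called in a fit of the compared groups alone (adjusted p = 0.0313). At 12 h and 11 days the differences were -0.06 and -0.06 (adjusted p = 0.774 and 0.803).

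0 of the 12 tests of a change in a member's CsA effect between successive times was called by limma. At an unadjusted p under 0.05 there was 1, the Apol7c one given above, and the share of all genes at that level was not worked out. Over all genes, 0.12% were called between 12 h and 24 h, 0.015% between 24 h and 48 h and 6.96% between 48 h and 11 days. The members' CsA effects are therefore not shown to differ between times.

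**Figure D4:**
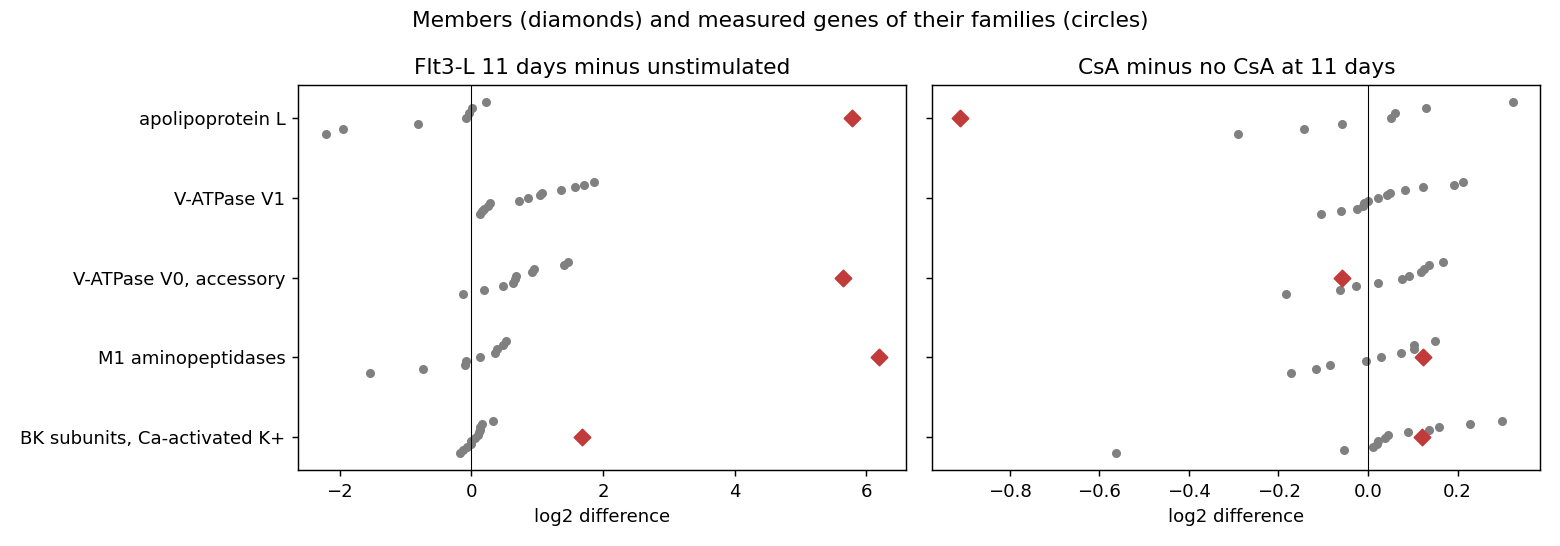
Log2 differences (x axis) of the members (diamonds) and the measured genes of their families (circles, by family on the y axis), for Flt3-L at 11 days against unstimulated marrow on the left and for CsA at 11 days on the right. V-ATPase subunits lie mostly above 0 in the first comparison, while the measured apolipoprotein L genes do not.

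Most relatives of Atp6v0d2 also rose, from 12 h on, when Atp6v0d2 itself still overlapped unstimulated marrow, and by smaller amounts than Atp6v0d2 later. Of 10 measured genes of the membrane (V0) sector and its accessory proteins, Atp6v0d2 left out, 7, 7, 8 and 8 were higher with Flt3-L by limma at the successive times and 0 lower at any of them. Of 13 genes of the catalytic (V1) sector, 11, 9, 9 and 11 were higher and 0 lower. At an unadjusted p under 0.05 the lower count was also 0 in both sectors. Over all genes, 36%, 35.6%, 37.1% and 51.9% were called in these comparisons. Those called higher were 17.8%, 17.9%, 18.5% and 27.2%, and those called lower 18.1%, 17.7%, 18.6% and 24.8%. The median differences at 12 h were 0.28 log2 units for V0 and 0.29 for V1, against 0.05 over all genes, and at 11 days 0.67 and 0.86, against 0.02. Atp6v0d1, the widely expressed d isoform, rose by 0.46, 0.53, 0.56 and 0.66, so its rise of 0.46 at 12 h came when the d2 gene stood at 0.17. Tcirg1, the a3 subunit gene, rose by 1.47 at 11 days, Atp6v0a1 by 1.40, Atp6ap2, the prorenin receptor, by 0.95 and Atp6v0b by 0.92. In the V1 sector, Atp6v1c1 rose by 1.87 (3.65-fold), Atp6v1a by 1.71, Atp6v1h by 1.57 and Atp6v1b2 by 1.36.

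CsA calls among the pump genes were few, as they were over all genes (6.73%, 3.78%, 4.51% and 12% at the successive times). These counts do not set the pump genes apart. At 11 days 1 of 10 V0 genes was lower, Atp6v0a2 by -0.18, whose other probe set went the opposite way, and 2 of 13 V1 genes were higher, Atp6v1g1 by 0.21 and Atp6v1c1 by 0.19. With array medians subtracted the Atp6v0a2 and Atp6v1c1 calls at 11 days were lost (adjusted p = 0.0570 and 0.0646), and with quantile normalization 2 V0 genes were called higher. At 48 h Atp6v1c1 was higher by 0.23, and at 12 h Atp6v1g3 was lower by -0.27, a call lost under both other scalings (adjusted p = 0.0723 and 0.103). Atp6v0d1 differed by 0.17 at 11 days (adjusted p = 0.08).

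Genes of osteoclasts and cell fusion, a setting in which Atp6v0d2 is known, moved under CsA where Atp6v0d2 was not called. At 11 days 8 of 16 were lower and 0 higher with CsA by limma (9 and 1 at an unadjusted p under 0.05), among them Acp5, the tartrate-resistant acid phosphatase (-1.91, 3.75-fold lower), Dcstamp, a fusion receptor (-1.87, 3.67-fold) and Car2, carbonic anhydrase (-1.38, 2.60-fold). With Flt3-L alone at 11 days 9 of 16 were higher and 5 lower, with Ckb, a creatine kinase, 13.4-fold, Tnfrsf11a, the RANK receptor, 8.73-fold and Dcstamp 5.93-fold higher, while Car2 was 48.5-fold lower. Of 4 genes of the MiT-TFE factors, which drive lysosome genes, 3 were higher with Flt3-L at every time: at 11 days Mitf by 3.06 (8.33-fold), Tfe3 by 1.05 and Tfeb by 0.33. Mitf was lower with CsA at 12 h (-0.52, with its other probe set going the opposite way) and at 11 days (-0.50).

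The calcineurin pathway itself was followed in 13 genes. Rcan1, an NFAT target that feeds back on calcineurin, was 1.26 log2 units higher with Flt3-L at 11 days. It was lower with CsA at 11 days, by -0.63 (1.54-fold lower), and was not called with CsA at 12 h, 24 h or 48 h. Nfatc1, which encodes the NFAT factor of osteoclasts, was lower with CsA at every time, by -0.22, -0.29, -0.31 and -0.21, all called; with array medians subtracted the 12 h call was lost (-0.16, adjusted p = 0.138). With CsA at 11 days 1 of the 13 was higher, the calcineurin subunit gene Ppp3cb by 0.18 (not called with array medians subtracted, adjusted p = 0.0654), and 2 were lower.

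The relatives of Apol7c did not rise. Of 7 other measured apolipoprotein L genes, 0 were higher with Flt3-L at any time by limma (1 at 12 h and 1 at 24 h at an unadjusted p under 0.05), and 2, 3, 3 and 3 were lower at the successive times. At 11 days Apol8 fell by 2.22 log2 units, Apol10a by 1.96 and Apold1 by 0.82. Apol6 (-0.03), Apol7a (-0.08), Apol7d (0.00) and Apol10b (0.22) were not called. CsA called 1 of the 7 at 11 days, Apol8, which was higher by 0.32 (adjusted p = 0.0067). Apol7b, Apol7e, Apol9a and Apol9b lie on probe sets shared with other genes and are not given, and near-identical copies in this family may share signal with Apol7c.

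The other aminopeptidases of Anpep's M1 family moved in both directions with Flt3-L. Of 9 measured, 4 were higher and 2 lower at 11 days, with a median of 0.14 log2 units. Lta4h, which makes leukotriene B4, fell by 1.54 and Enpep, aminopeptidase A, by 0.74, while Erap1, which trims peptides for MHC class I, rose by 0.53 and Rnpepl1 by 0.48. CsA called 0 of the 9 at any time by limma, and at an unadjusted p under 0.05 it gave 1 at 12 h and 1 at 11 days. Among 11 other surface peptidases, CsA called 3, 6, 3 and 4 lower at the successive times and 1 higher, Ace (angiotensin-converting enzyme) at 11 days. The 24 h count was 2 without the CsA 24 h replicate 3 and 3 with array medians subtracted, and the 12 h and 48 h counts were then 2 and 2. Dpep2 rose 29.3-fold with Flt3-L by 11 days (4.87 log2 units, against 2.97 on its other probe set). At 11 days it was lower with CsA by -0.49 (-0.85 on the other probe set). Its calls at 24 h and 48 h (-0.22 and -0.20) are among those counts, and its other probe set then went the opposite way (0.12 and 0.03). Dpp4, or CD26, was lower with CsA at 11 days by -0.96, whereas Cpm, carboxypeptidase M, fell by 3.83 with Flt3-L.

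The partners of the BK channel gave little to set beside the probe set labelled Kcnma1. Of 12 accessory subunits and other calcium-activated potassium channels, 1 was higher with Flt3-L at 11 days, Kcnn3 by 0.33, against 4 under either other scaling of the arrays. Kcnmb4, a BK accessory subunit, differed by 0.13 (adjusted p = 0.15). With CsA at 11 days Kcnn4, the intermediate-conductance channel of blood cells, was lower by -0.56 and Lrrc55, a BK accessory subunit, higher by 0.30. A list of 12 potassium and proton channels of myeloid cells also holds Kcnn4, so its counts are not separate from those above. Of these 12, 5 were higher and 4 lower at 11 days of Flt3-L, with a median of -0.05 log2 units. Kcnj2 rose by 2.39, Kcnk13 by 1.95 and Kcnk6 by 1.66, and Kcnq5 fell by 1.44. With CsA at 11 days 5 of the 12 were lower and 0 higher by limma, among them Kcnn4, Kcnj2 (-0.53) and the proton channel gene Hvcn1 (-0.50).

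Cell type markers also moved during the culture, in different directions for different lists. The 12 macrophage markers summed to 7413 to 8373 in unstimulated marrow, 15208 to 16253 at 12 h, 25692 to 26758 at 24 h, 37947 to 39236 at 48 h and 59355 to 61063 at 11 days of Flt3-L, with no overlap between times. At 12 h 7 of the 12 were higher and 4 lower, and at 11 days all 12 were higher. CsA called 0 of the 12 at 11 days by limma, and 1 at an unadjusted p under 0.05. Mature dendritic cell markers summed to 2162 to 2386 in unstimulated marrow, 2615 to 2682 at 48 h and 5554 to 7931 at 11 days. The 8 plasmacytoid dendritic cell markers summed to 5875 to 6255 in unstimulated marrow, 9586 to 9866 at 48 h and 3264 to 3521 at 11 days. Of these 8, 6 were higher and 0 lower at 48 h, and 2 were higher and 4 lower at 11 days. The 10 neutrophil markers, all lower at 11 days, summed to between 55619 and 57388 in unstimulated marrow and between 2664 and 3138 at 11 days, and 9 of 10 were lower still with CsA. No marker of any list was at 0, since the lowest value in the whole table is 5.2. The part of these shifts in the members' values was not tested.

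The genes whose 9 group means followed each member most closely were taken from 3732 genes spanning at least 1 log2 unit, as a description. For Anpep they were Cndp2, a dipeptidase (r = 0.998), Anxa5, annexin A5 (0.997) and Sh3pxd2b (0.996). For Atp6v0d2 they were Abcc3, an organic anion exporter (0.995), Cd180, a Toll-like receptor homologue (0.993) and Slc29a3, a lysosomal nucleoside transporter (0.993). For Apol7c they were Mcur1, a mitochondrial calcium uptake regulator (0.992), Kif1b, a kinesin (0.991) and Zmynd15 (0.991). For the probe set labelled Kcnma1 they were Sh2b2, an adaptor protein (0.966), N4bp3 (0.959) and Bpifc (0.950). Among the members themselves r was 0.93 between Anpep and Atp6v0d2, 0.85 between Anpep and Apol7c and 0.83 between Apol7c and Atp6v0d2. It lay between -0.29 and 0.11 for the probe set labelled Kcnma1 with the other 3.

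Over the whole table, array medians ran from 114.2 to 124.8 and the lowest correlation between arrays of a group was 0.996. For 25 of 27 arrays the most similar array came from the same group. CsA replicate 3 at 12 h and at 24 h differed here, since each was most similar to Flt3-L replicate 3 of that time. Without the array in question, 0 of 4 members were called at 12 h and 0 of 4 at 24 h, the same as with it. The number of arrays, 3 per group, limits the precision of every value.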

How the data were processed

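RNA was extracted with Trizol and labelled with the WT Expression Kit for Affymetrix arrays, per the labels' protocols. The authors deposited linear intensity values summarised with RMA, per the submitters' processing notes, whose version is not given in the sources used here; they were taken to log2. Of 28815 probe sets, 21780 carry 1 gene symbol, 1605 several and 5430 none in the platform annotation, which can be old, and 0 symbols were updated through Entrez IDs. This gave 19935 genes, 998 of them with several probe sets. No array column was left unused (0).

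limma 3.58.1 in R 4.3.3 fitted all 9 groups in 1 linear model without a block, with moderated statistics and the Benjamini-Hochberg adjustment over all genes at 0.05. It was tested on simulated data. Promoter motifs were searched with Python 3.11.15 in RefSeq sequences, and a symbol match was required. The members and gene lists were chosen with earlier results of these data known, so the members' counts carry no test of their own. The named genes were the members, up to 3 called genes of largest effect per list and CsA comparison, up to 4 per list for Flt3-L at 11 days, every measured apolipoprotein L gene, Atp6v0d1, Kcnmb4, Kcnn4, Rcan1, Nfatc1, the 3 genes most like each member and the 5 largest rises per time. The cell type markers quoted as examples and some genes left out of the text for length are choices made after their values were seen. P-values of the main fit rest on the spread between arrays within groups, pooled over all 9 groups and moderated across genes. They do not rest on the spread of the compared groups alone.

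Replicate numbers are shared between groups. Same-numbered CsA and Flt3-L arrays deviated together more than differently numbered ones at 12 h (r = 0.19, 0.19 and 0.098) and 24 h (0.37, 0.35 and 0.40). At 48 h (0.54, 0.18 and 0.19) this held for replicate 1 only, and at 11 days (0.01, 0.11 and -0.04) for replicate 2 only. The alternatives were a replicate block, other scalings, a filter on dim genes, other variance estimates, array weights, averaging over all probe sets of a gene, 50 added to each signal, a fit of the compared groups alone and leaving out each array. The other Kcnma1 probe set and the fits without the odd CsA arrays were added after seeing the data.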

Additional observations from a re-analysis of the deposited data

How the results depend on the processing

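With a replicate block no member's call changed. The block moved the genes called for CsA at 12 h from 1341 to 2111, and those whose CsA effect changed from 24 to 64 (12 h to 24 h) and from 3 to 11 (24 h to 48 h). That last count was 6 with the array median subtracted, 7 with a filter on dim genes, 7 with trend and robust variances and 5 with array weights. Array weights called 5301 genes for CsA at 12 h, among them Anpep (0.26, adjusted p = 0.0205), gave 123 changed effects from 12 h to 24 h, and called Atp6v0d2 at 24 h (-0.40) and 48 h (-0.35). With 50 added, Atp6v0d2 was called at 24 h (-0.34) and 48 h (-0.32), and 46 effects changed from 12 h to 24 h. The 24 h step of the probe set labelled Kcnma1 with CsA was called with 50 added (0.26), the filter (0.27) or the mean of both probe sets (0.22), which ended its CsA call at 48 h (0.20). A fit of the compared groups alone called 177, 396 and 451 genes for CsA at 12 h, 24 h and 48 h (main 1341, 754 and 899), 1966 for the 24 h step with CsA (main 3261), 11 and 0 changed effects, and Atp6v0d2 at 24 h (-0.37). With the other Kcnma1 probe set, the CsA difference at 48 h was 0.00037 and the last CsA step turned from -4.94 to 0.26.

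Leaving out each array gave 332 to 3221 genes called for CsA at 12 h, 475 to 594 at 24 h and 586 to 693 at 48 h, and 10 to 65 and 1 to 4 changed effects over the early intervals. Apol7c ranged from -1.09 to -0.79 for CsA at 11 days, 0.68 to 1.05 for the 24 h step with CsA and -1.004 to -0.48 for the last change in CsA effect. The probe set labelled Kcnma1 ranged from 0.33 to 0.46 for CsA at 48 h and 0.21 to 0.35 for the 24 h step. With array medians subtracted, genes higher and lower with CsA at 12 h went from 562 and 779 to 786 and 258, those of the 24 h step with CsA from 1621 and 1640 to 1066 and 1715, and changed effects from 12 h to 24 h from 7 and 17 to 1 and 15. Where no cause is given here, the cause was not tested. With 3 arrays a group, every value has limited precision.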
